A study of Mus musculus with 9 samples.

Results

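The libraries described here are the 3 that carry replicate number 1, of 9 in all, set against the 6 with replicate number 2 or 3. All 9 were made from wild type E14.1 mouse embryonic stem cells of strain 129, a line in wide use, grown as a monolayer. Every culture received retinoic acid (RA) and SAG, an agonist of the Hedgehog receptor component Smoothened. By the labels this lasted for the first 3 days in differentiation conditions (DDC). The study's methods place the change to medium without RA and SAG slightly later. Neural stem cells were then selected on magnetic beads by the surface protein Prominin-1, and poly(A) RNA was sequenced at 4.5, 5.5 and 6.5DDC. There was 1 library of each replicate number at each time point, and no group lacked RA or SAG. The rule for membership was the replicate number in the sample label, and no expression value entered it. The labels do not say what libraries of 1 number share (a thaw, a differentiation, a day of sorting or a library batch), so culture and preparation cannot be told apart. All came from 1 cell line, and p-values measure the spread between these libraries alone.

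RA, made from vitamin A, gives dividing neural progenitors a position along the head-to-tail axis. It binds nuclear receptors that act on DNA, and it switches on Hox genes, which are ordered along 4 chromosomal clusters so that low-numbered paralogues mark the hindbrain and higher numbers mark levels farther towards the tail. Sonic hedgehog (Shh) signalling, which SAG imitates, gives ventral identity: floor plate cells at the midline secrete Shh, and the neighbouring Nkx2-2-positive progenitors of the hindbrain first make visceral motor neurons and later serotonergic neurons. Proneural factors of the Neurog family push progenitors out of the cell cycle towards a neuronal fate.

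Gene counts per library summed to between 11066568 and 25506193. Replicate 1 was the deepest library at 4.5DDC (17820601) and 5.5DDC (25506193) and the shallowest at 6.5DDC (12851786). Of 6 properties of whole libraries, the share of counts in replication-dependent histones was higher in replicate 1 at all 3 time points (for example 0.00482% against 0.00396% and 0.00420% at 6.5DDC). Its exact permutation p was 0.037, two-sided, the smallest that 27 arrangements of the numbers within time points allow, and 0.222 after adjustment over the 6. Total counts, detected symbols, the share in the 100 most counted genes, and the shares in mitochondrially encoded and ribosomal proteins had exact permutation p-values between 0.111 and 0.481. The genes Prom1 and Sox2 of the sorted identity overlapped between the sets. Prom1 encodes the protein used for sorting. At 4.5, 5.5 and 6.5DDC it was at 89.3, 107 and 207 FPKM in replicate 1 and 62.8 to 187 (median 102) in the others. FPKM is fragments per kilobase of transcript, scaled to library size. Sox2, a transcription factor of neural stem cells, stood at 88.0, 89.1 and 84.9 FPKM against 78.2 to 96.0. Neither was called (edgeR log2 difference 0.21 ± 0.14 and 0.07 ± 0.11, SE, adjusted p = 0.437 and 0.793). Sox3, another neural stem cell marker, had an edgeR log2 difference of -0.81 and was not called (adjusted p = 0.168). Its difference ran from -1.12 to -0.57 over 19 alternative settings. Of 13 neural stem cell markers tested, 1 was called: Fabp7, a fatty acid binding protein, at 142, 252 and 655 FPKM in replicate 1 and 439 to 911 in the others (-1.08 ± 0.24, adjusted p = 0.0137). Without replicate 1 of 4.5DDC or of 5.5DDC that p was 0.0948 or 0.0919.

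Across 15126 genes tested with time point as a covariate, 1938 (12.8%) were called between replicate 1 and the other libraries at an adjusted p under 0.05. Of these, 874 (5.78%) were higher in replicate 1 and 1064 (7.03%) were lower. The lower genes moved farther: 249 were lower by at least 2 log2 units, whereas 70 were higher by as much, and the medians over called genes were -1.35 and 0.91. In 1925 of the 1938 the difference had 1 sign at every time point. The call itself favours this, as 1 difference was fitted over all 3 time points, so the count is no separate support. To be tested a gene had to pass a filter on low counts in at least 2 libraries. Of the higher genes 59 passed it through replicate 1 alone, and of the lower ones 228 through replicates 2 and 3 alone; such genes had to differ, and their calls are no support for a direction. Replicate 1 lay above both other libraries at all 3 time points for 1699 genes (11.2%) and below both for 1872 (12.4%). Against replicate 2 alone 996 genes were called (6.58%), and against replicate 3 alone 938 (6.2%). These comparisons share the replicate 1 libraries. Between replicates 3 and 2 none was called (0.0%) by edgeR, DESeq2 or limma, and 40 of the 15126 had an unadjusted edgeR p under 0.05 (17 in DESeq2, 44 in limma voom), where 756 would be expected with no difference. In a fit of the 6 libraries of replicates 2 and 3 alone, added after the data were seen, the number was 60 and again none was called. The p-values of this comparison thus run high, and the count of 0 does not show that replicates 2 and 3 were alike. Within time points the correlation of log2 abundance (counts scaled to library size) between replicates 2 and 3 was 0.978, 0.992 and 0.983, and that of replicate 1 with either ranged from 0.946 to 0.968. The count of 1938 was 1027 when the deepest library, replicate 1 of 5.5DDC, was left out, 1273 when replicate 1 of 4.5DDC was, and 1280 when replicate 2 of 5.5DDC was. Thinning all libraries to the lowest total, chosen after the data were seen, left 1820.

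**Figure D1:**
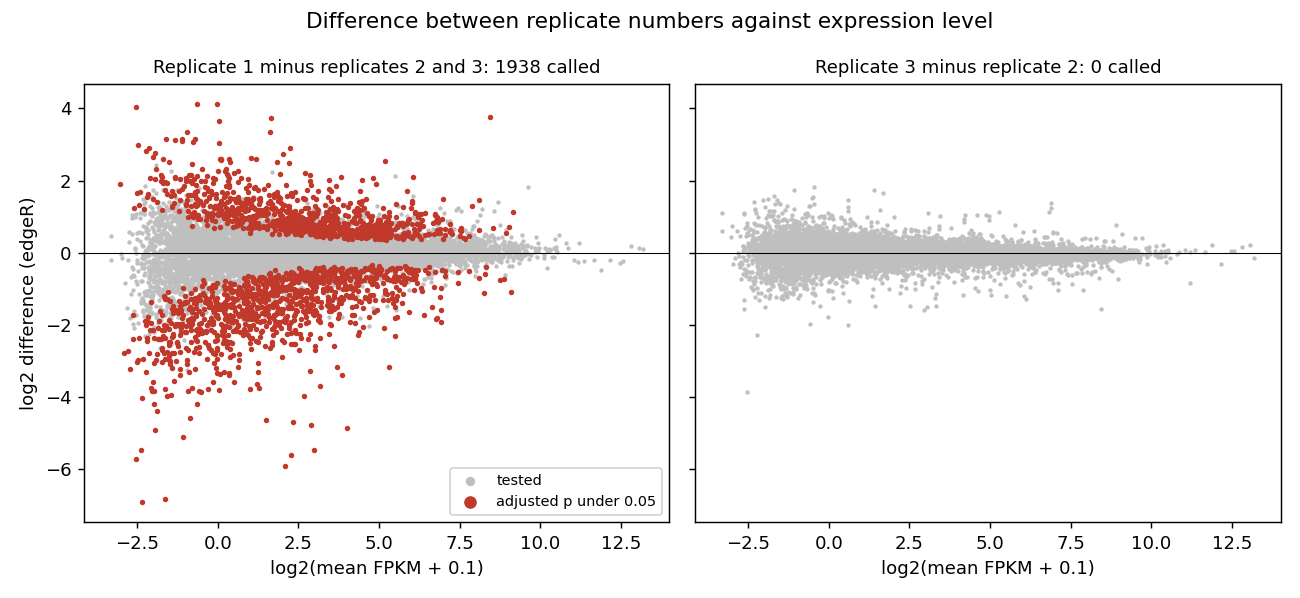
Fitted log2 difference (vertical axis) against log2(mean FPKM + 0.1) (horizontal axis) for each of 15126 tested genes, in red where the adjusted p is under 0.05. The left panel (replicate 1 minus replicates 2 and 3) holds 1938 red points reaching below -6, and the right panel (replicate 3 minus replicate 2) holds 0.

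Hox genes had the lowest medians among 52 gene lists. All 9 tested members of paralogue groups 1 to 4 were lower in replicate 1, with a median log2 difference of -1.86 where the median over all genes was 0.014. Of 11 tested members of groups 5 to 13, 8 were lower (median -2.19) and none was higher; 4 of the 8, Hoxb5 and Hoxb6 among them, passed the filter through replicates 2 and 3 alone. Hoxd3 (chr2:74711927-74748442, GRCm38) was at 0.683, 0.851 and 1.10 FPKM in replicate 1 at 4.5, 5.5 and 6.5DDC and at 18.6 to 37.1 (median 21.5) in the other 6 libraries. The 2 sets lay far apart at each time point, by 28.9-fold in the fit (-4.85 ± 0.21, SE, adjusted p = 2.8e-06).

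Hoxb5 (chr11:96303336-96306121) was at a higher level at each later time point in replicates 2 and 3 and at a low level in replicate 1, but the change of its difference with time point was not called (adjusted p = 0.159). Replicate 1 held 0.257, 0.192 and 0.182 FPKM. Replicate 2 went from 4.81 to 10.7 and 16.8, and replicate 3 from 3.58 to 11 and 22.6 (-5.48 ± 0.39, adjusted p = 4.9e-05). Its neighbour Hoxb6 was at 0.0446 to 0.133 FPKM in replicate 1 and reached 8.60 and 16.7 at 6.5DDC in the others (-5.62 ± 0.59). Hoxc5 gave -4.79 ± 0.37 and Hoxc4 -3.17 ± 0.26. The hindbrain genes of group 2 differed least among those called: Hoxa2 was at 7.09 to 8.94 FPKM in replicate 1 and 14.7 to 17.3 in the others (-0.95 ± 0.14), and Hoxb2 at 10.5 to 12.5 and 20 to 25.8 (-0.98 ± 0.13). The group 2 genes were thus 1.93-fold and 1.97-fold lower, where Hoxc5 was 27.6-fold lower. The 3 tested members that were not called were Hoxa7 (-0.69 ± 0.46), Hoxb7 (-0.77 ± 0.25) and Hoxa9 (-1.95 ± 0.74), with adjusted p between 0.0749 and 0.425. Hoxb1 was too low to be tested, at no more than 0.348 FPKM in any library. Whether the counting used strand is not given in the sources used here; 52.9% of the exonic bases of Hoxb3 (-2.02 ± 0.26) and 27.3% of those of Hoxb2 overlap the antisense transcript Hoxb3os, so reads of these cannot be told apart.

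**Figure D2:**
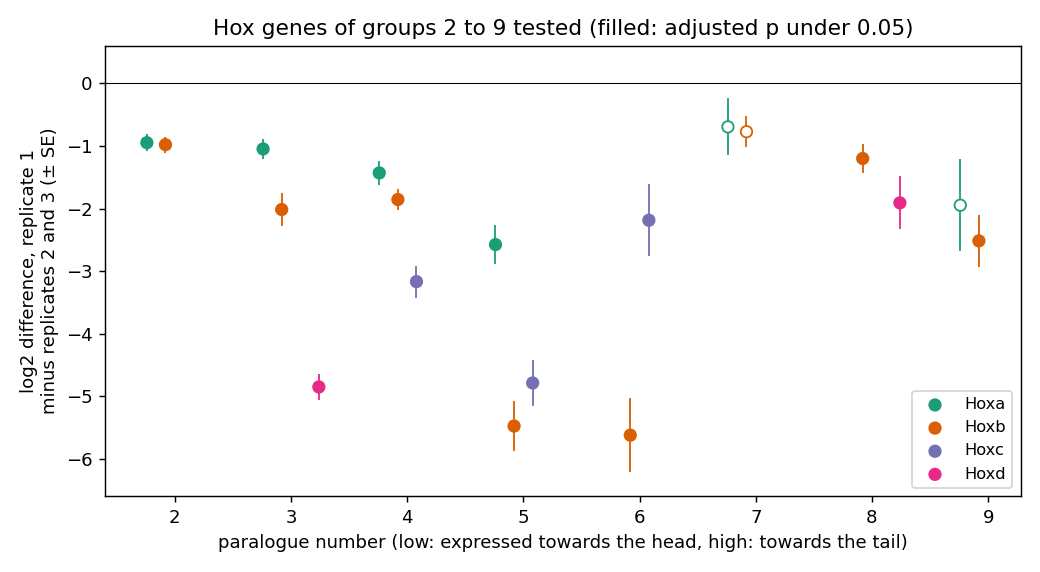
Fitted log2 difference of replicate 1 minus replicates 2 and 3, with its standard error, for the tested Hox genes of paralogue groups 2 to 9 against paralogue number, coloured by cluster, and filled where the adjusted p is under 0.05. All 19 lie below 0, from -0.69 (Hoxa7) to -5.62 (Hoxb6), and the 3 open points are Hoxa7, Hoxb7 and Hoxa9.

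Genes that make, carry or receive RA were also lower in replicate 1, but not throughout. Of 21 tested, 8 were lower and 2 higher (median -0.35); 3 of the lower ones, Aldh1a2 among them, and 1 higher one, Stra8, passed the filter through 1 set of libraries alone. Aldh1a2 (chr9:71215789-71296243), which encodes the enzyme that makes RA in the embryonic trunk, was at 0.0611, 0.0859 and 0.144 FPKM in replicate 1. In replicates 2 and 3 it was at 2.51 and 0.93 at 4.5DDC, at 8.43 and 7.81 at 5.5DDC, and at 8.10 and 8.76 at 6.5DDC. The 3 replicate 1 libraries held 3, 6 and 5 counts of it, so its 60.0-fold difference rests on few reads on 1 side (-5.91 ± 0.43, adjusted p = 5.1e-05). Rarb (chr14:16430839-16819156), an RA receptor gene that RA itself switches on, was at 0.919, 0.198 and 0.799 FPKM in replicate 1 and 7.63 to 11.6 (median 9) in the others (-3.98 ± 0.36, adjusted p = 0.000124). It was thus low at every time point and fairly even in the other 6. Of the exonic bases of Rarb, 38.4% overlap transcripts of the other strand, among them Top2b. The 2 higher genes were Rdh10, which oxidises retinol in the step before Aldh1a2, at 13.4 FPKM or more in every replicate 1 library against 4.4 to 11.2, with log2 differences of 0.79, 1.69 and 1.45 at 4.5, 5.5 and 6.5DDC (1.32 ± 0.17 in all, adjusted p = 0.000746), and Stra8, a germ cell gene that RA induces, at 0.826 to 1.01 against 0.113 to 0.537 (1.94 ± 0.40, adjusted p = 0.00903, and 0.0531 without replicate 1 of 5.5DDC). Cyp26a1, the RA-degrading enzyme, was at 0.150 to 0.682 FPKM in replicate 1 and 0.174 to 0.542 in the others (0.02 ± 0.39, adjusted p = 0.987), so that the sets overlapped.

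RA receptors bind a pair of short repeated sites, and a direct repeat of the letters GTTCA with 6 bases between the copies was searched on both strands in the 250 bases before each RefSeq gene start (GRCm38.p6). It was found in 22 of 32851 stretches (0.067%). No other spelling, spacing or motif was searched, so the counts given here are not counts of sites that RA receptors can bind. Of 17 members of the RA list with a stretch, 2 held it, Rarb and Cyp26a1, which are shown because they carry the same letters and differ in their values. Among 1306 called genes with a stretch, 2 held it, Rarb and Dmd, the dystrophin gene (0.66 ± 0.17, adjusted p = 0.0278, and 0.177 without replicate 1 of 5.5DDC). Capitals mark the copies, which begin 52 bases before the start of Rarb (chr14:16575477-16575726, minus strand) and 32 before that of Cyp26a1 (chr19:37697558-37697807, plus strand), where they read as the opposite strand. A match is a description of letters, not of binding.
Rarb: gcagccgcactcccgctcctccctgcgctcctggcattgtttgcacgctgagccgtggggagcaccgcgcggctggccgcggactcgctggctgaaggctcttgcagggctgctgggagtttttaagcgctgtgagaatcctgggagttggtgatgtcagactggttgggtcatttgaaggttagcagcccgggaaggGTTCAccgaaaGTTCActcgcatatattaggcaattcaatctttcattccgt
Cyp26a1: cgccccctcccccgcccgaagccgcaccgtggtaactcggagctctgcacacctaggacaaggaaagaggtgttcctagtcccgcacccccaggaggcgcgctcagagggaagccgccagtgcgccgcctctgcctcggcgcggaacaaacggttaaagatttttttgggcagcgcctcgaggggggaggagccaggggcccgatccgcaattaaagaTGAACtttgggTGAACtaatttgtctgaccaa

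Neuronal genes were lower in replicate 1. Of 31 tested pan-neuronal genes 24 were called lower and none higher (median -1.53), and for 22 of the 31 replicate 1 lay below both others at all 3 time points. Sncg, gamma-synuclein, was at 3.43, 3.09 and 14.4 FPKM in replicate 1 and 15.4 to 92.0 (median 56.2) in the others (-3.16 ± 0.48, adjusted p = 0.00175). Mapt, the microtubule protein tau, was at 0.764, 1.60 and 7.88 against 5.79 and 3.19, 15.5 and 13.8, and 25.9 and 33.0 FPKM (-2.58 ± 0.34). It rose with time in every replicate number, and replicate 1 was below the others at each time point. Syt4, a vesicle protein, gave -2.69 ± 0.30. Ion channels and neurotransmitter receptors had 21 of 32 lower and none higher (median -1.46), 5 of them testable through replicates 2 and 3 alone. They included the glutamate receptor subunits Gria2 (-2.65 ± 0.28) and Grik2 (-2.20 ± 0.28). Of 23 clustered protocadherins, adhesion proteins that give neurons an individual surface, 18 were lower and none higher (median -1.15), with Pcdhac1 at 0.634 to 2.27 FPKM against 1.78 to 7.67 (-2.02 ± 0.26) and Pcdhb3 at 0.352 to 0.721 against 1.04 to 2.72 (3.99-fold lower). The genes of the protocadherin beta family are similar in sequence and lie side by side, so reads may be shared among them. The summed level of the pan-neuronal list was 652, 638 and 1063 FPKM in replicate 1, and 1456 and 1014, 1748 and 1754, and 2114 and 2428 in replicates 2 and 3 at the same times. In bulk RNA, fewer cells of a type and less RNA per cell cannot be told apart.

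The factors that start neurogenesis were lower in the same libraries, with 9 of 18 proneural genes called lower and none higher (median -1.31); 2 of the 9, Neurog2 among them, passed the filter through replicates 2 and 3 alone. Neurog3 (chr10:62133090-62134763) was at 0.377, 0.882 and 0.579 FPKM in replicate 1. In replicates 2 and 3 it stood at 1.05 and 0.504, 6.30 and 6.96, and 15.7 and 32.1, so that the gap was small at 4.5DDC and wide at 6.5DDC (-3.28 ± 0.63, adjusted p = 0.00592). Neurog2, which acts in motor neuron progenitors, was low in every library, at 0.104, 0.102 and 0 FPKM against 0.336 to 1.66 (-3.24 ± 0.49). Nhlh2, a factor of newborn neurons, fell from 10.3 to 3.12 FPKM in replicate 1 and stayed at 19.5 to 27.2 in the others (-1.93 ± 0.27, adjusted p = 0.00109).

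Ventral identity genes did not move as 1 group. Of 10 tested genes on the list of Nkx2-2 lineage factors 3 were lower and none higher (median -0.52). Olig2, of the adjacent progenitors, is on that list and is 1 of the 3. Nkx2-2 itself was at 7.87, 10.2 and 7.28 FPKM in replicate 1 and 11.1 to 18.8 (median 15.7) in the others (-0.86 ± 0.16, adjusted p = 0.00512). Olig2, which marks the adjacent somatic motor neuron progenitors, was at 0.564, 0.132 and 0.0533 FPKM against 0.528 to 9.97 (-3.75 ± 0.42, adjusted p = 0.000357), and its neighbour Olig1 had 2, 0 and 0 counts against 51 and 32, 8 and 11, and 0 and 4 (adjusted p = 0.00268). Of 15 genes of visceral and somatic motor neurons 8 were lower and none higher (median -1.26), including the somatic factors Lhx3 (-3.84 ± 0.63) and Mnx1 (-3.01 ± 0.46), both at 1.81 FPKM or less in every library. Of these 8, 3 (Lhx3 and Mnx1 among them) passed the filter through replicates 2 and 3 alone, as did Olig1 and Olig2. Isl1, shared by both kinds, was at 4.68 to 17.1 FPKM against 3.53 to 31.0 and was not called (-0.49 ± 0.21, adjusted p = 0.178). Nkx2-9 missed the threshold (-1.50 ± 0.45, adjusted p = 0.0507).

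The 10 serotonergic genes divided, with 3 higher and 2 lower (median -0.08). Slc18a2, the vesicle transporter that loads serotonin, was at 12.4, 26.1 and 50.9 FPKM in replicate 1 against 4.49 to 42.4 (0.78 ± 0.16, adjusted p = 0.00778, and 0.0593 without replicate 1 of 4.5DDC). Lmx1b, a factor needed for serotonergic neurons, was at 13.5, 28.7 and 11.5 against 4.78 to 16.6 (0.82 ± 0.18, adjusted p = 0.0114, but 0.11 and 0.0835 without replicate 1 of 4.5DDC and of 5.5DDC), and the third was Maob, a monoamine oxidase (1.45 ± 0.30, adjusted p = 0.00903, and 0.0967 without replicate 1 of 4.5DDC). Gata3 (-1.38 ± 0.25) and Insm1 (-1.39 ± 0.22) were lower. Fev, a selector of serotonergic neurons, was at 0, 0.115 and 1.29 FPKM against 0.0521 to 2.54 and was not called (-0.89 ± 0.48, adjusted p = 0.305). Of 15 Shh pathway genes 2 were higher and 2 lower (median 0.13). Gli1, the target by which Shh signalling is usually read, was at 2.34, 0.920 and 0.223 FPKM against 8.77 and 3.29, 1.85 and 1.72, and 0.550 and 0.915 (-1.30 ± 0.31, adjusted p = 0.0182, but 0.11 and 0.0522 without replicate 1 of 4.5DDC and of 6.5DDC). Ptch1, the receptor and another target, was at 19.5 to 44.0 FPKM against 26.2 to 62.4 (-0.26 ± 0.14, adjusted p = 0.321). Gli2 (0.13 ± 0.40) and Gli3 (0.07 ± 0.22), whose signs changed with the libraries used, were not called. Nor was the neural stem cell marker Sox3 (-0.81 ± 0.34, adjusted p = 0.168). In the TGF-beta pathway 4 of 21 genes were higher and 2 lower (median -0.05). Tgfb2, a ligand, was at 6.07, 8.24 and 9.66 FPKM in replicate 1 and 3.87 and 3.59, 4.61 and 5.74, and 6.65 and 5.88 in the others (0.68 ± 0.13, adjusted p = 0.00486). Its receptor Tgfbr2 was at 8.64, 13.3 and 18.4 FPKM against 3.16 to 7.61 (1.19 ± 0.14, adjusted p = 0.000526), and Smad3, which carries the signal to the nucleus, at 108 to 125 against 38.3 to 83.3 (0.91 ± 0.13). For these 3 genes replicate 1 was above both other libraries at every time point.

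**Figure D3:**
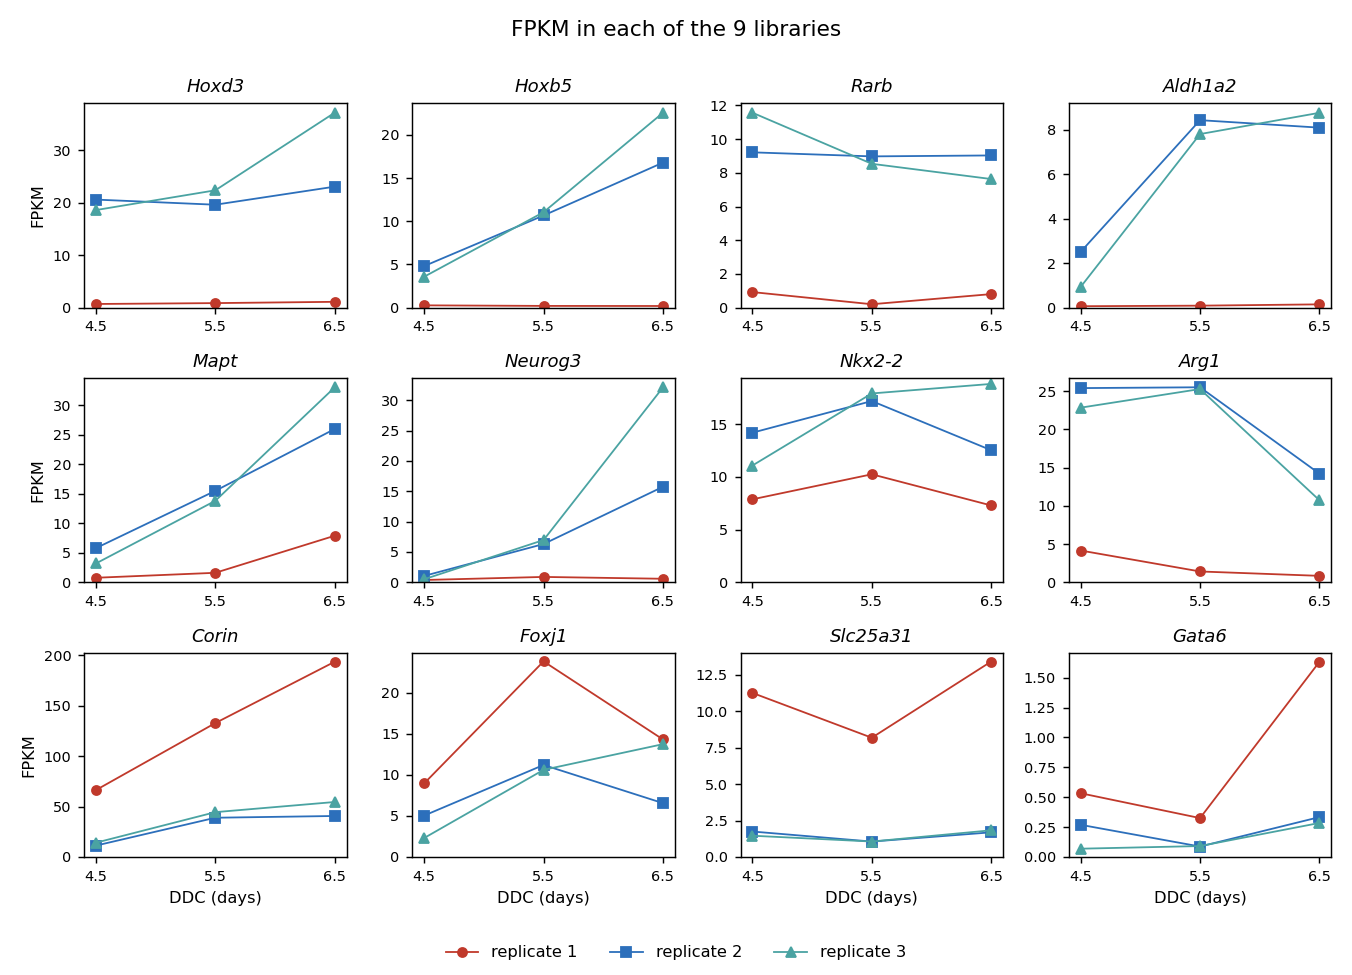
FPKM (vertical axes, from 0) of 12 genes in each of the 9 libraries against days in differentiation conditions, with replicate 1 in red circles, 2 in blue squares and 3 in green triangles. The first 8 panels show genes lower in replicate 1 (Hoxd3 at 0.683 to 1.10 against 18.6 to 37.1) and the last 4 show higher ones (Corin at 66.4 to 194 against 11.3 to 54.5).

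Floor plate genes were higher in replicate 1, with 7 of 14 called higher and none lower (median 0.61). Corin (chr5:72300025-72504473), a membrane protease that marks floor plate cells, was at 66.4, 133 and 194 FPKM in replicate 1. Replicate 2 held 11.3, 38.9 and 40.7 and replicate 3 held 14.2, 44.5 and 54.5 (2.11 ± 0.14, adjusted p = 4.2e-05). Replicate 1 at 4.5DDC was thus already above every library of replicates 2 and 3. For the transcription factor Ferd3l (26.4 to 104 FPKM against 14.9 to 58.2; 0.75 ± 0.14) replicate 1 was above both others at each time point. The defining genes Shh (0.29 ± 0.16, adjusted p = 0.322) and Foxa2 (0.30 ± 0.16, adjusted p = 0.284) were not called: Shh was at 185, 325 and 222 FPKM in replicate 1 and 117 to 286 in the others. Genes of motile cilia, which floor plate cells carry, had 7 of 14 called higher and 1 lower (median 0.76). Foxj1, their master regulator, was at 8.97, 23.8 and 14.3 FPKM against 5.04 and 2.31, 11.2 and 10.6, and 6.56 and 13.7 (0.99 ± 0.24, adjusted p = 0.0203). It is on both lists, and its p was 0.133, 0.123, 0.0515 and 0.0558 without replicate 1 of 4.5DDC and replicates 1, 2 and 3 of 5.5DDC in turn. Rsph4a, a radial spoke protein, gave 1.49 ± 0.23 (adjusted p = 0.00193). The tektins Tekt1 (1.07 ± 0.23) and Tekt4 (1.36 ± 0.31) had adjusted p of 0.0124 and 0.0148, and 0.0836 and 0.087 without replicate 1 of 4.5DDC; Tekt4 was at 0.133 without that of 5.5DDC. The lower one was Dnaic2, a dynein chain (-0.99 ± 0.27, adjusted p = 0.0346), with a p between 0.0683 and 0.108 on leaving out any library of 5.5DDC, replicate 1 or 2 of 4.5DDC, or replicate 1 of 6.5DDC.

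Markers of endoderm, a lineage outside the neural one, were higher as well, and those named here were at low levels. Of 16 tested 10 were higher and none lower (median 0.83), but 3 of the 10, Apoa1 and Sox17 among them, passed the filter through replicate 1 alone. Not all 10 were low. A laminin gene among them, also on the matrix list, was at 15 to 60.8 FPKM in replicate 1 and 11.1 to 18.1 in the others. Gata6 was at 0.533, 0.325 and 1.63 FPKM in replicate 1 and 0.0693 to 0.333 (median 0.180) in the others (2.06 ± 0.34, adjusted p = 0.0029), and Sox17 at 0.201 to 0.529 against 0.0177 to 0.186 (2.04 ± 0.39). Both are transcription factors that define endoderm, and neither exceeded 2 FPKM in any library. Apoa1, a lipoprotein made by yolk sac and liver, had 4, 18 and 12 counts in replicate 1 and at most 3 in any other library (3.09 ± 0.82, adjusted p = 0.0314, tested in 12 of 19 alternatives, and 0.0575 to 0.0748 without replicate 2 of 4.5DDC or replicate 2 or 3 of 5.5DDC). Afp was at 0.0313 to 0.569 FPKM against 0 to 0.0364 and Ttr at 0.165 to 2.34 against 0.102 to 0.472, and neither passed the filter on low counts. The 25 listed markers in the table summed to 196, 178 and 242 FPKM in replicate 1 and 164 and 107, 124 and 128, and 99.4 and 128 in the others, with no marker at 0 in every library. The part of endoderm cells in the replicate 1 difference was not tested. Of 32 matrix and integrin genes 9 were higher and 2 lower (median 0.37). The basement membrane laminin Lamb1 was at 21.3, 13.5 and 80.4 FPKM against 9.04 to 21.3 (1.34 ± 0.26, adjusted p = 0.007), and the 2 lower ones, Ncan (-1.30 ± 0.14) and Tnc (-1.11 ± 0.23, adjusted p = 0.00917, and 0.0616 without replicate 1 of 5.5DDC), are matrix proteins of nervous tissue. The mesenchymal collagen Col3a1 was lower by a wide margin, at 0.235, 0.690 and 2.04 FPKM against 4.72 and 1.74, 9.86 and 9.39, and 21.4 and 30.4 (-3.71 ± 0.29, adjusted p = 6.1e-05). It was 1 of 25 tested genes of neural crest and mesenchyme, of which 7 were lower and 1 higher (median -0.14). Of the 25, 11 had a difference above 0, and 3 of the 7 passed the filter through replicates 2 and 3 alone. The higher one was also a collagen gene (1.49 ± 0.21, adjusted p = 0.0014). Of 10 genes of mesoderm, endothelium and blood 1 was higher and 2 were lower (median -0.02). The higher one, T (Brachyury), passed the filter through replicate 1 alone and had 46, 34 and 46 counts in replicate 1 and 1 to 3 in the others (4.11 ± 0.45, adjusted p = 0.000334). Of 5 tested genes of forebrain and midbrain identity 2 were lower and none higher, while 3 of the 5 had a difference above 0 (median 0.16); both lower ones passed the filter through replicates 2 and 3 alone. Of these, Nkx2-1, also a foregut factor, had 0 counts in all 3 replicate 1 libraries and 28 and 25, 4 and 7, and 4 and 2 in the others (adjusted p = 0.00204).

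Germline genes that somatic cells keep silent by DNA methylation of their promoters had the highest median of the 52 lists. Of 24 tested 12 were higher in replicate 1 and none lower (median 1.02), and for 15 replicate 1 lay above both others at all 3 time points. Of the 12, 5 passed the filter through replicate 1 alone, among them Dazl, Stra8, Tuba3a and Tuba3b. Slc25a31 (chr3:40708855-40726096), an ADP/ATP carrier of male germ cells, was at 11.2, 8.17 and 13.4 FPKM in replicate 1. The other 6 libraries held 1.06 to 1.83 (median 1.57), so that the lowest replicate 1 library was above all of them (2.91 ± 0.16, 7.49-fold, adjusted p = 1.3e-05). Mael, of the piRNA pathway, was at 2.63, 1.49 and 3.90 FPKM against 0.102 to 0.608 (2.6 ± 0.30, adjusted p = 0.000468). Dazl, an RNA-binding protein of germ cells, had 16, 19 and 30 counts against 1 to 4 (2.77 ± 0.44, adjusted p = 0.00233). Tuba3b, a testis tubulin, was at 2.01 to 2.80 FPKM against 0.0433 to 0.448 (3.64 ± 0.47), but it is nearly identical to Tuba3a (1.79 ± 0.37, adjusted p = 0.00911, and 0.0854 without replicate 1 of 5.5DDC), and reads may be split between them. None of the 15 tested genes for DNA methylation enzymes and their partners was called (median -0.02), where 12.8% of all genes tested were. So short a list cannot show that these genes did not differ. DNA methylation was not measured in these libraries.

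The 250 bases before the start are shown for Dazl (chr17:50293621-50293870, minus strand) and Slc25a31 (chr3:40708621-40708870, plus strand), with each CG dinucleotide, the site that methylation uses, in capitals. They hold 20 and 18, where the median over 32851 RefSeq stretches of that length is 6 and the 75th percentile 16. Among germline genes with a stretch, the 11 called higher had a median of 14 and the 10 tested but not called a median of 13, with ranges of 3 to 20 and 2 to 31, so these counts overlapped between the 2 sets.
Dazl: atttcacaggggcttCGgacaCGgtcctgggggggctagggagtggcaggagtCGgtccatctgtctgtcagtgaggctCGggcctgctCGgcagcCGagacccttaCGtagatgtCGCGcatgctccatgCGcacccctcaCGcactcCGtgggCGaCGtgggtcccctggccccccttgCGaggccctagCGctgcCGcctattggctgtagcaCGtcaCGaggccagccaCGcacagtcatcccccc
Slc25a31: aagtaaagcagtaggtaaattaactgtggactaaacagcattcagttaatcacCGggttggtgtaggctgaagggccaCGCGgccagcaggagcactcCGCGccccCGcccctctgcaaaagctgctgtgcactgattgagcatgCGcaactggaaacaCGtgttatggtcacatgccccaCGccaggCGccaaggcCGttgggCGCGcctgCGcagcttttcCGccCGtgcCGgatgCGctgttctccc

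Several of the largest differences lay outside the groups above. Arg1, arginase, was at 4.15, 1.41 and 0.842 FPKM in replicate 1 and 10.7 to 25.5 (median 24.1) in the others (-3.41 ± 0.30, adjusted p = 0.000114). Cbln2, a synapse organiser, was at 0.0210, 0.0443 and 0.984 against 0.907 and 0.597, 6.77 and 6.13, and 16.3 and 12.7 FPKM (-4.69 ± 0.51). The axon guidance receptors Robo3 (-4.65 ± 0.56) and Epha5 (-3.65 ± 0.32), the LIM cofactor Ldb2 (-3.77 ± 0.69) and the gene 3830417A13Rik (-3.32 ± 0.82, adjusted p = 0.0228, but 0.0855 and 0.117 without replicate 1 of 4.5DDC and of 5.5DDC) completed the 15 largest lower differences. Among these lower genes Cbln2, Robo3, Ldb2 and 3830417A13Rik passed the filter through replicates 2 and 3 alone. Higher in replicate 1 was Sdpr, a protein of caveolae, at 57.2, 94.6 and 80.9 FPKM against 5.62 to 25.4 (2.55 ± 0.20, adjusted p = 5.8e-05). Gm364 was at 5.72 to 9.26 against 0.526 to 0.998 FPKM (3.34 ± 0.21), and Cyp2s1, a cytochrome P450, at 6.11, 9.98 and 14.2 against 1.12 to 2.34 (2.49 ± 0.22). For these 3 genes the sets did not overlap. Others of the 15 largest higher differences had log2 differences from 2.50 (Ocln, of tight junctions) through Pamr1, Mogat2, Aldh3b1, Lrrc17, Rnf138rt1 and Palmd to 4.13 (1700018B24Rik). With 14, 20 and 27 counts in replicate 1 and at most 3 in any other library, 1700018B24Rik passed the filter through replicate 1 alone.

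**Figure D4:**
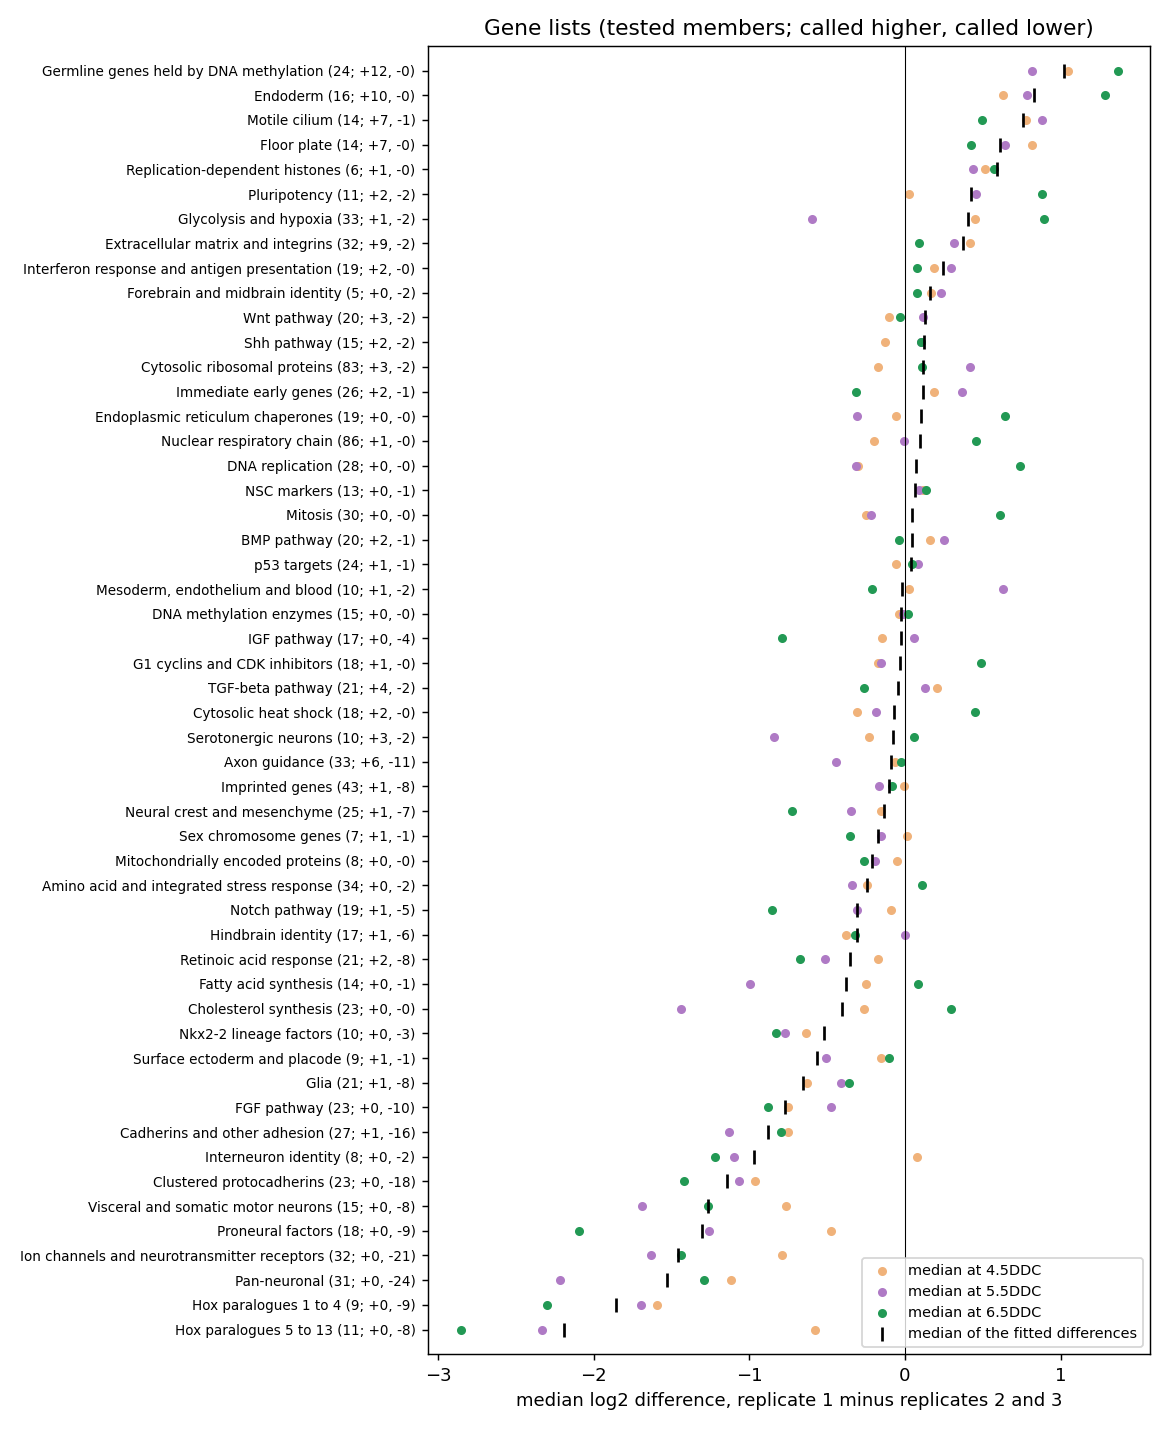
Median log2 difference of replicate 1 minus replicates 2 and 3 (horizontal axis) for 52 gene lists, with dots for the medians at 4.5, 5.5 and 6.5DDC and a bar for the median of the fitted differences. Beside each name stand the number of tested members and those called higher and lower. Hox and neuronal lists lie at -1.46 to -2.19 at the bottom, and germline, endoderm, cilium and floor plate lists at 0.61 to 1.02 at the top.

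Several lists showed no called member, where 12.8% of all genes tested were called, a share that gives few calls in a short list. They were cholesterol synthesis (23 tested), DNA replication (28), mitosis (30), endoplasmic reticulum chaperones (19), DNA methylation enzymes and mitochondrially encoded proteins (8). Some of their medians were not steady over time: cholesterol synthesis was at -0.27, -1.44 and 0.30 at 4.5, 5.5 and 6.5DDC, DNA replication at -0.30, -0.31 and 0.74, and mitosis at -0.25, -0.22 and 0.61. DNA methylation enzymes stayed near 0, at -0.04, -0.01 and 0.02. Of 83 cytosolic ribosomal proteins 3 were higher and 2 lower. For Rps27 counts and FPKM differed: it had 1338 counts in replicate 1 of 5.5DDC and 118 and 13 in the other 2 libraries, while its FPKM values were 550, 289 and 253, and the call (3.75 ± 0.89, adjusted p = 0.0186) was lost without replicate 1 of 5.5DDC (0.0941), replicate 1 of 6.5DDC (0.0933) or replicate 2 of 6.5DDC (0.0625).

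Hox levels over time are given side by side. From 4.5 to 6.5DDC, on the log2(FPKM + 0.1) scale, the mean of replicates 2 and 3 differed by 2.2 for Hoxb5, 3.4 for Hoxb6 and 1.88 for Hoxa5, and replicate 1 by -0.34, -0.25 and -0.15. None of these 3 passed the test of a difference that changes with time point (edgeR adjusted p = 0.159, 0.501 and 0.147). Hoxd3 took a like step in both sets, 0.58 and 0.61, from levels far apart. The libraries still sorted by time. Over 13104 genes averaging 1 FPKM or more, replicate 1 correlated best with the mean of replicates 2 and 3 of its own time point, at r = 0.957, 0.936 and 0.941 across genes, which all share these libraries. By the median absolute log2 difference, though, the 4.5DDC library lay slightly nearer the others at 5.5DDC (0.219) than at 4.5DDC (0.236). At 5.5 and 6.5DDC replicate 1 lay 0.286 and 0.325 from that mean. Replicates 2 and 3 correlated with each other at r = 0.959, 0.972 and 0.957, and lay 0.289, 0.12 and 0.255 apart. At 4.5DDC replicate 1 thus lay no farther from the mean than replicates 2 and 3 from each other. A mean of 2 libraries varies less than 1 library, so these distances are not of 1 kind.

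The size of the replicate 1 difference changed with time point for 5 genes (0.0331% of those tested), with 2069 at an unadjusted p under 0.05. The count depended on the method, at 370 in DESeq2, 104 without the filter on low counts and 0 in limma voom. Tpbpa, a trophoblast gene, was at 0.557, 1.20 and 55.8 FPKM in replicate 1 and at 7.72 and 12.1, 35.8 and 34.9, and 48.3 and 34.6 in the others. Car2, carbonic anhydrase, followed the same course, at 1.93, 2.25 and 34.0 against 16.1 and 17.5, 29.0 and 29.4, and 31.5 and 28.0. For both, replicate 1 was far below the others until 5.5DDC and level with them or above at 6.5DDC. Cdh5, the vascular cadherin, gave 0.266, 0.405 and 4.17 FPKM in replicate 1 against 2.70 to 4.51. Neurod4, a factor of differentiating neurons, diverged later: it was at 37.3, 11.2 and 1.78 FPKM against 42.6 and 46.8, 21.4 and 22.2, and 17.9 and 19.6. Ldha, lactate dehydrogenase, was above the others at 4.5DDC (302 against 122 and 134) and 6.5DDC (424 against 55 and 82.7) and below at 5.5DDC (76.0 against 187 and 194). The adjusted p was 0.0297 for Car2 and 0.0372 for the other 4. With 1 replicate 1 library per time point the test rests on single libraries, and its count went from 0 to 166 on leaving out 1 library: 0 without replicate 2 or 3 of 5.5DDC or replicate 1 of 6.5DDC, 1 without replicate 3 of 6.5DDC, 3 without replicate 1 of 5.5DDC, and 81, 166 and 164 without replicates 1, 2 and 3 of 4.5DDC.

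**Figure D5:**
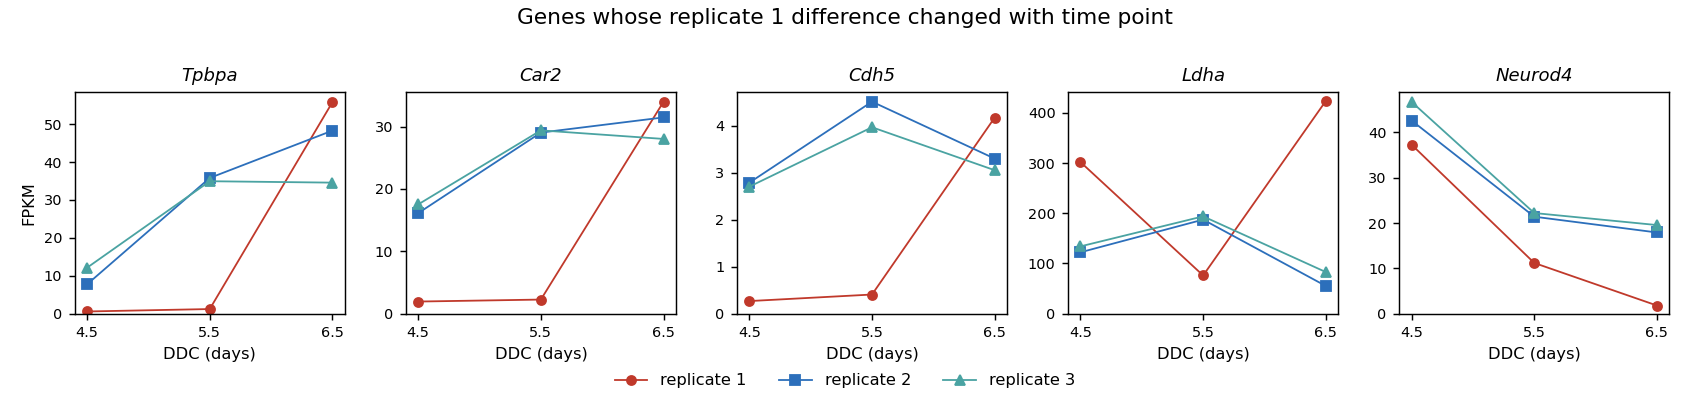
FPKM (vertical axes, from 0) in each of the 9 libraries against days in differentiation conditions for the 5 genes whose replicate 1 difference changed with time point, replicate 1 in red circles, 2 in blue squares and 3 in green triangles. Tpbpa, Car2 and Cdh5 are low in replicate 1 until 5.5DDC and reach 55.8, 34.0 and 4.17 at 6.5DDC, Ldha crosses the others, and Neurod4 falls to 1.78.

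Called genes were spread unevenly over expression level, gene length and chromosomes, with genes cut into 5 equal bins by each property. In the lowest bin of mean FPKM 13.7% of genes were lower and 8.0% higher in replicate 1, and in the highest bin 2.84% and 3.7%. By exonic length the share lower went from 2.84% in the shortest bin to 10.9% in the longest, while the median log2 difference ran from 0.07 to -0.03. By GC content the medians ran from -0.03 to 0.07, with 7.71% lower in the lowest bin and 7.74% in the highest. Medians of the autosomes and the X chromosome lay between -0.04 and 0.06. The share of genes called lower on chromosome 18, which carries the protocadherin clusters, was 14.2%, and it was 4.16% to 9.31% on the other autosomes and the X chromosome.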

How the data were processed

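Per the labels and the study's methods, the authors aligned single-end poly(A) reads of 9 libraries to GRCm38 with TopHat2 2.0.4, counted them per gene with HTSeq 0.6.1, computed FPKM with Cufflinks 2.1.1 and log2 values with limma voom. The deposited gene counts of 98 of 38197 symbols were not whole, so they were treated as estimated counts (expected counts) and rounded. The FPKM values were used for levels as the authors deposited them. The log2 values as deposited were the counts per library total on a log2 scale, without further scaling, and were used only in a check.

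Replicate 1 was compared with replicates 2 and 3 by edgeR 4.0.16 (quasi-likelihood test, TMM scaling, time point as covariate, filterByExpr, R 4.3.3) over 15126 genes. Unless another test or a library left out is named, an adjusted p is from that test. Adjustment was by Benjamini-Hochberg over all genes tested, called under 0.05, and log2 differences carry their SE. The change with time point had an edgeR test of its own. Properties of whole libraries were adjusted over their own permutation tests. Alternatives were DESeq2 1.42.0, limma 3.58.1, other scalings and filters, a replicate block and each library left out. Coordinates are from GENCODE M21, which matched 14079 of the genes tested.

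The groups, lists and tests were chosen with earlier results of these data known, among them that replicate 1 stands apart. Named were, per direction, the 15 largest differences among called genes on 1 side at all 3 time points with a mean of at least 2 FPKM in the higher set, up to 4 called members per list and direction, a set of lineage genes, and the 5 genes changing with time point. Afp, Cyp26a1, Dmd, Foxa2, Hoxa2, Hoxa7, Hoxa9, Hoxb2, Hoxb7, Shh, Ttr and Tuba3a were added after their values were seen. Some genes are not reported here.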

Additional observations from a re-analysis of the deposited data

Results flagged for a closer look

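The replicate 1 difference changed between time points for 5 genes by edgeR's test of the change itself. From 4.5 to 6.5DDC the difference moved on the log2 scale by 4.72 for Tpbpa, 3.85 for Cdh5, 3.37 for Car2 and 1.53 for Ldha, and by -3.03 for Neurod4. DESeq2 called 370 genes in this comparison, edgeR without the filter on low counts 104, and limma voom 0. At each time point replicate 1 was a single library.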

How the results depend on the processing

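Of 98 named genes tested, 78 were called, none of the 78 changed sign in the alternatives in which it was tested (all 19 for 70 genes, 18 for 6, 16 for Nkx2-1 and 12 for Apoa1), and 53 kept the call in each of those; the others lost it most often in limma on log2(FPKM + 1) (18 genes) and without replicate 1 of 5.5DDC (11). The count of 1938 went to 1188 in limma on log2(FPKM + 1), to 1306 on log2(FPKM + 0.1), to 2290 in DESeq2, and over 1027 to 2171 on leaving out 1 library. With replicate number as a block it was 1476, and 2 named genes, Dmd and Dnaic2, lost the call (adjusted p = 0.0519 and 0.0568 in edgeR). Against replicate 2, limma on log2(FPKM + 0.1) and (FPKM + 1) called 416 and 358, and leaving out 1 library 263 to 1461, with 554 and 405 without replicate 1 of 4.5DDC and 5.5DDC, and 356, 263 and 529 without replicate 2 of 4.5, 5.5 and 6.5DDC. Against replicate 3 they called 389 and 316, and 266 to 1007, with 561 and 361 without replicate 1 of 4.5DDC and 5.5DDC and 266 without replicate 3 of 5.5DDC. The count changing with time point was 370 in DESeq2, 104 without the filter, 2 with library totals only, 0 in limma voom and 0 to 166 on leaving out 1 library. The sign of Cyp26a1 turned in DESeq2 (-0.00659), thinned counts (-0.31), library totals only (-0.012), limma on log2(FPKM + 0.1) (-0.023) and limma voom (-0.00521). On leaving out 1 library its difference ran from -0.40 to 0.24, that of Gli2 from -0.28 to 0.44 and that of Gli3 from -0.064 to 0.21, and the ribosomal protein share from -0.021 to 0.128 percentage points. These causes were not tested. Of 988 list medians under alternatives, 58 moved by more than the spread over time points.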
